A study of Mus musculus with 2 samples.

Results

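The genes described are the opioid peptide precursors Penk, Pdyn and Pnoc and the opioid receptors Oprk1, Oprm1, Oprd1 and Oprl1. These 7 genes, of 31053 gene rows in the count matrix, were chosen by name, and each had a row. Their transcripts were followed across neurons in a nuclear sort of the paraventricular hypothalamus (PVH), among them those that held UMIs (unique molecular identifiers, 1 per captured RNA molecule) of Ucn3, Trh, Crh, Sst, Oxt, Avp or the GABA genes Gad1, Gad2 and Slc32a1, and across 3 hashtag pools. The data are 1 single-nucleus RNA sequencing library pooled from 17 mice, each 4 weeks old. Sim1-Cre and the nuclear reporter Sun1-GFP were present in every mouse, so sorting on GFP selected nuclei of cells in which Cre had been active at any time, driven by Sim1. Of the mice, 7 had no altered Otp allele, 4 carried Otpfl/+ and 6 carried OtpQ153R/+ (Otpq153r in the sample labels); Otp encodes a homeobox factor of these neurons. The hashtag antibody rows are named Ctrl, KD and Q153R. The name KD is not spelled out and was matched to the floxed mice by elimination alone, so the text speaks of nuclei labelled Ctrl, KD and Q153R. Mice of a genotype were pooled under 1 tag, so differences between pools cannot be set against a spread between mice, and p-values are left out. Intervals are at 95%. They cover counting error only and treat the UMIs of a nucleus as independent.

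Opioid peptides are cut from large precursors by prohormone convertases and are released from dense-core vesicles. Penk gives the enkephalins, which act mainly at the delta receptor Oprd1 and the mu receptor Oprm1; Pdyn gives dynorphins and neoendorphins, which prefer the kappa receptor Oprk1; Pnoc gives nociceptin, the ligand of Oprl1. The receptors couple to Gi and Go proteins and lower the excitability and transmitter release of the neurons that carry them, and dynorphin is a known co-transmitter of magnocellular vasopressin neurons.

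The coding sequence of each precursor shows which peptides its transcript can give, and 6 of the stretches are shown for that reason. The reference transcript Penk-201 (268 codons) held 7 copies of the codons for Tyr-Gly-Gly-Phe, the opioid core, all in exon 2. In 6 copies a Met codon followed, as in Met-enkephalin, and in 1 a Leu codon, as in Leu-enkephalin. Pdyn-201 (248 codons) held 3 copies in exon 4, all followed by Leu. Pnoc-201 (187 codons) held no Tyr-Gly-Gly-Phe, and 1 Phe-Gly-Gly-Phe in exon 3, the start of nociceptin. Each of these 11 cores stood after 2 codons for basic residues, the kind of site that convertases cut. Below, the 12 core bases are in capitals, with 6 bases before and up to 15 after, 5′ to 3′ on the coding strand, which is the minus strand of GRCm38 (mm10) in each case.
Penk core 1, followed by Met, chr4:4134322-4134354: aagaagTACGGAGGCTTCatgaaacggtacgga
Penk core 6, followed by Leu, chr4:4133929-4133961: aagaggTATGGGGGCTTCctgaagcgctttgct
Penk core 7, the last before the stop codon, chr4:4133839-4133868: aaaagaTACGGGGGCTTTatgcggttctga
Pdyn core 2, dynorphin A, chr2:129688118-129688150: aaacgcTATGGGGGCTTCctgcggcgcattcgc
Pdyn core 3, dynorphin B, chr2:129688061-129688093: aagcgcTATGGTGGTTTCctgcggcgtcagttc
Pnoc core, nociceptin, chr14:65404866-65404898: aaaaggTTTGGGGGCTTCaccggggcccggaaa

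The matrix held 6173 barcodes and 42833533 gene UMIs, and 4904 of the 6157 barcodes that passed the filters carried exactly 1 hashtag. Of these, 4740 nuclei in 20 clusters were counted as neurons, with a median of 5308.5 UMIs (565 to 29974), and 164 in 3 clusters carried astrocyte, oligodendrocyte or oligodendrocyte precursor names. The neurons included a cluster of 13 nuclei led by Bcas1, Enpp6 and Gpr17, genes of the oligodendrocyte lineage, which met no naming rule. Sim1 stood at 125 CPM in the glia and at 154 CPM or more in each neuron class, where CPM is the UMIs of a gene per 1000000 gene UMIs summed over the nuclei. In 3 of the 20 clusters, with 628 nuclei in all, Sim1 was below the glia, which goes against the name PVH neurons: cluster 13 (78 nuclei, led by Tcf7l2 and Pmch, 9.56 CPM), cluster 16 (537 nuclei, led by Gad1, Dlx6os1 and Meis2, 25.5 CPM) and the cluster of 13 nuclei (0). Cluster 16 held 231 of the 359 nuclei of the GABA class. They are counted among the neurons, and class values that turn on them are also given over the other 4112 neurons. Marker UMIs put 150 neurons in the Oxt class (at least 10 UMIs), 224 in the Avp class (10), 270 in the Sst class (5), 346 in the Trh class (2), 207 in the Crh class (2), 58 in the Ucn3 class (2) and 359 in the GABA class (3). The minimums for Oxt, Avp and Sst are high because Oxt stood at 136 CPM and Avp at 135 CPM in the 3253 neurons of no class, and at 639 CPM and 480 CPM in the glia. Of markers of neighbouring hypothalamic areas, Agrp stood at 31.6 CPM in neurons with at most 6 UMIs in 1 nucleus, Pomc at 6.91 CPM with at most 2, and Kiss1 at 0. Pmch, the melanin-concentrating hormone precursor of the lateral hypothalamus, had 207 UMIs in 47 nuclei, with up to 66 in 1 nucleus, and Tac2 had 48 UMIs in 23 nuclei, with up to 10. In the Ucn3 class, where Pmch had 1 UMI and Tac2 none, Agrp stood at 27.4 CPM and Pomc at 6.86 CPM. Nuclei may belong to more than 1 class, and 46 of the 58 Ucn3 nuclei also belonged to the Trh class. In summed counts, fewer expressing cells and less RNA per cell cannot be told apart.

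Most neurons held few UMIs of the 7 genes: 47.5% held none of them, 38.5% held UMIs of 1 gene, 11.7% of 2, 1.86% of 3, 0.338% of 4, and 2 nuclei of 5. Set against all other neurons, 4 of the 7 genes (Penk, Pdyn, Oprm1 and Oprd1) were at least 1.5-fold higher in the Ucn3 class, where 13.3% of all genes with at least 50 UMIs were; 0 of the 7 were lower (25.2% of all genes). In the Oxt class 2 genes were higher (13.5% of all genes) and 5 were lower (18.5%). In the Avp class 1 was higher (11.3%) and 4 were lower (21.9%). The counts were 1 higher (7.96%) and 4 lower (18.5%) in the Sst class, 2 higher (6.35%) and 1 lower (9.59%) in the Trh class, 1 higher (9.81%) and 4 lower (36.9%) in the Crh class, and 2 higher (4.61%) and 0 lower (10.7%) in the GABA class. Decreases outnumbered increases in the Oxt, Avp, Sst and Crh classes, but among all genes they did so in each of the 7 classes. Some of these decreases rest on few UMIs, with Oprd1 at 2 in the Oxt class and 2 in the Crh class. Pnoc had 0 UMIs in the Oxt class and 0 in the Avp class. In the Crh class the median gene itself stood 0.30 below the other neurons on the log2 scale, at a log2 ratio of -0.30.

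**Figure D1:**
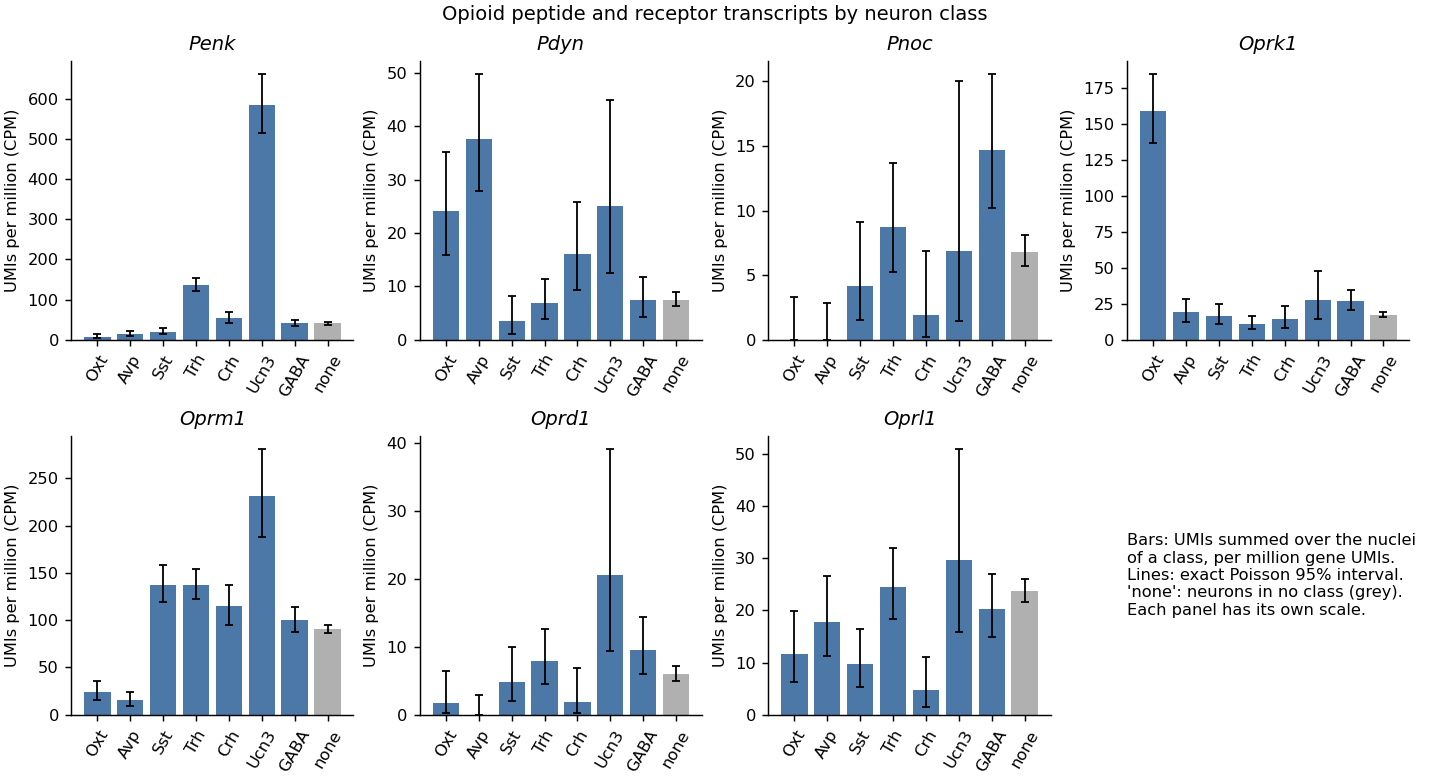
Summed level of each gene (CPM, vertical axis, a separate scale per gene) in the 7 neuron classes and in neurons of no class (grey), with exact Poisson 95% intervals. Penk and Oprm1 stand highest in the Ucn3 class (585 and 231 CPM), Oprk1 in the Oxt class (159 CPM), Pdyn in the Avp class (37.7 CPM) and Pnoc in the GABA class (14.7 CPM).

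Penk (ENSMUSG00000045573, chr4:4133531-4138819, minus strand), the enkephalin precursor, was highest in Ucn3 neurons but not confined to them. It stood at 585 CPM (516–661) in the 58 Ucn3 nuclei, 15.7 times the level of all other neurons (13.6–18.0), and these nuclei, 1.22% of neurons, held 20.4% of the 1253 Penk UMIs. It was lowest in the Oxt class, with 8 UMIs or 7.16 CPM (3.09–14.1), 0.150 times the others (0.0646–0.296), and in the Avp class at 13.8 CPM (8.20–21.9), 0.290 times (0.171–0.460). The Ucn3 ratio fell to 9.86 when barcodes with other hashtag calls were added and to 10.2 at a minimum of 1 Ucn3 UMI, and it rose to 19.9 without likely doublets. Most Penk nuclei lay elsewhere: 394 of the 540 neurons with a Penk UMI (73.0%) belonged to no class, as did 68.6% of all neurons. Neurons of no class held 742 of the Penk UMIs.

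The level of Penk went with Ucn3 more than with Trh. In the Trh class as a whole it stood at 137 CPM (122–153.4), 3.59 times the other neurons (3.14–4.09), but 1.26 times among Trh nuclei of no other class. The nuclei in both classes stood at 604 CPM (526–691), and the Trh nuclei outside the Ucn3 class at 46.8 CPM, a ratio of 12.9 (10.0–16.8). The Trh nuclei outside the Ucn3 class were in turn 1.28 times the neurons of neither class (1.01–1.60). The 287 Trh nuclei without any Ucn3 UMI stood at 36.0 CPM (27.6–46.1), beside 36.6 CPM (34.2–39.0) in those same neurons of neither class, a ratio of 0.984 (0.748–1.27). By the number of Ucn3 UMIs in a nucleus, Penk stood at 36.7 CPM with 0, 84.4 CPM with 1 (55.6–123), 326 CPM with 2 to 3 (234–443) and 689 CPM with 4 or more (600.4–788). The deepest of these groups had a median of 8196 UMIs per nucleus, against 5295 with no Ucn3 UMI.

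Within the Ucn3 class Penk was uneven between nuclei. Of the 58 nuclei, 33 (56.9%) held a Penk UMI, 21 held 5 or more, and the highest held 21, with a median of 2 over the 58. At an equal depth of 2338 UMIs the share with a Penk UMI was 47.0% (33.3–61.0), against 6.76% of all neurons (6.03–7.55) and 2.41% of glia (0.341–7.98), which had a median of 2579 UMIs before thinning. Glial cells are known to be able to express Penk, so they are no clean background for this gene. In the Oxt and Avp classes the thinned shares were 1.83% and 2.45%, near that of the glia. With 1 UMI as the minimum for the Oxt and Avp classes, their Penk ratios were 1.03 and 1.01. The Crh class (54.0 CPM) and the GABA class (40.7 CPM) did not differ beyond counting error (ratio 1.32, 0.907–1.90), while the GABA class stood above the Sst class (20.2 CPM, ratio 2.19, 1.38–3.59).

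Clusters were made with the 7 genes left out, and Penk was again highest where Ucn3 led. Cluster 0, led by Ucn3 and Nxph1, held 118 nuclei, 308 Penk UMIs and 399.9 CPM (357–447), 11.2 times the other neurons (9.80–12.7). Cluster 5, led by Megf10 and Ppp1r17, followed at 115 CPM (96.2–136), and cluster 17, led by Reln, at 66.4 CPM (53.0–82.3); the median neuron cluster stood at 29.7 CPM. The 2 clusters with Oxt among their leading genes differed: cluster 8, the one with most Oxt, held 0 Penk UMIs in 100 nuclei, which allows up to 5.18 CPM, and cluster 15, which is led by Esr2, the oestrogen receptor beta gene, held 96 UMIs or 58.9 CPM (47.7–72.0).

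Pdyn (ENSMUSG00000027400, chr2:129686565-129699844, minus strand), the dynorphin precursor, was highest in vasopressin neurons. It stood at 37.7 CPM (27.9–49.8) in the Avp class, 4.67 times the other neurons (3.35–6.40), and at 24.2 CPM (15.9–35.2) in the Oxt class, 2.73 times (1.76–4.07). The order of the upper classes was Avp, Ucn3 (11 UMIs, 25.1 CPM), Oxt and Crh (16.1 CPM, 17 UMIs), and no neighbours among these 4 differed beyond counting error. The Sst class was low, with 5 UMIs or 3.48 CPM (1.13–8.11). No Pdyn UMI fell on a Ucn3 nucleus that belonged to no other class, so the ratio of 2.72 (1.34–4.96) for the Ucn3 class became 0 (0–5.72) among the 11 such nuclei.

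Nuclei with more Avp held more Pdyn. In neurons with Avp under 1000 CPM of their own UMIs, Pdyn stood at 8.04 CPM (6.98–9.22). It stood at 13.7 CPM (5.93–27.1) in those from 1000 to under 5000 CPM, at 33.9 CPM (22.6–49.1) in those up to 20000 CPM, and at 94.9 CPM (54.2–154) in the 41 nuclei at or above that. In the last group 14 of 41 nuclei held a Pdyn UMI. At equal depth the share with a Pdyn UMI was 7.52% in the Avp class (4.28–12.1) and 5.32% in the Oxt class (2.26–10.4), against 1.91% of all neurons (1.52–2.36) and 0.510% of glia (0.00032–4.91); the unthinned shares were 17.0%, 14.7%, 4.39% and 1.22%. When 1 Avp UMI put a nucleus in the class, the ratio was 1.57 instead of 4.67, and it was 2.97 with all barcodes that passed the filters.

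By cluster, Pdyn was highest in cluster 18 (led by Avp) at 41.8 CPM (30.8–55.4), in cluster 15 (Esr2) at 33.8 CPM (25.4–43.9) and in cluster 17 (Reln) at 22.9 CPM (15.4–32.9). Cluster 8, with the most Oxt, stood at 16.9 CPM, below cluster 15 by a ratio of 0.499 (0.243–0.944). The 208 nuclei with a Pdyn UMI were spread widely, and 114 of them (54.8%) belonged to no class.

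Pnoc (ENSMUSG00000045731, chr14:65400673-65425472, minus strand), the nociceptin precursor, was scarce, with 186 UMIs in neurons. It was highest in the GABA class, with 34 UMIs or 14.7 CPM (10.2–20.6), 2.41 times the other neurons (1.61–3.51), and 5.96 times when the minimum for the class was doubled. Over the neurons without the 3 clusters of low Sim1 the ratio was 1.87 (0.789–3.79). The next class, Trh (8.76 CPM, 5.27–13.7), did not differ from it beyond counting error (GABA over Trh 1.68, 0.930–3.11). The Oxt and Avp classes held 0 Pnoc UMIs, which allows up to 2.69 and 2.31 CPM at 3 counts. By cluster, Pnoc stood at 18.1 CPM (13.1–24.3) in cluster 2, led by Sim2 and Qrfpr, at 16.5 CPM (12.3–21.8) in cluster 16, led by Gad1, and at 12.9 CPM (8.29–19.2) in cluster 7, led by Ebf2 and Bnc2. So its highest levels lay both inside and outside the GABA neurons. The glia stood at 8.41 CPM (2.73–19.6), near the 6.84 CPM of all neurons, and their thinned share with a UMI was 0.714% against 2.53% (1.16–4.77) in the GABA class, so low Pnoc levels are not read as expression.

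**Figure D2:**
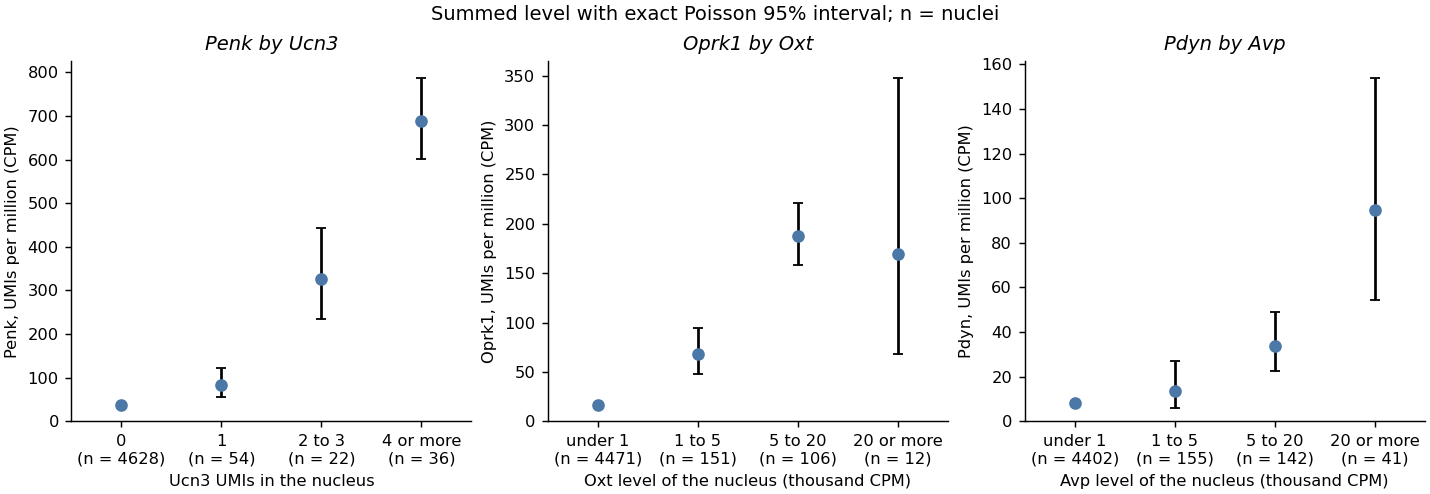
Summed level (CPM, vertical axes) of Penk by the number of Ucn3 UMIs in the nucleus, of Oprk1 by the Oxt level of the nucleus and of Pdyn by its Avp level (horizontal axes), with exact Poisson 95% intervals and the number of nuclei. Penk goes from 36.7 to 689 CPM and Pdyn from 8.04 to 94.9 CPM, while Oprk1 stands at 188 and 169 CPM in the 2 groups with most Oxt.

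Oprk1 (ENSMUSG00000025905, chr1:5588466-5606131, plus strand), the kappa receptor for dynorphin, marked oxytocin neurons. It stood at 159 CPM (137–185) in the Oxt class, 9.28 times the other neurons (7.75–11.1), and the 150 Oxt nuclei, 3.16% of neurons, held 28.4% of its 626 UMIs. The next classes, Ucn3 (27.4 CPM), GABA (26.8 CPM), Avp (19.2 CPM), Sst (16.7 CPM), Crh (14.2 CPM) and Trh (11.1 CPM), formed a series in which no neighbours differed beyond counting error. In the Trh class it was 0.460 times the other neurons (0.292–0.691), and 0.880 times with all barcodes that passed the filters. The Avp class stood at 0.828 times the other neurons (0.531–1.23).

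In the Oxt class 80 of 150 nuclei (53.3%) held an Oprk1 UMI, 48 held 2 or more, and the highest held 8. At equal depth the share was 27.3% (20.2–35.3), against 4.26% of all neurons (3.68–4.91), 3.23% of the Avp class and 2.35% of glia (0.322–7.90). Oprk1 stood at 16.9 CPM in neurons with Oxt under 1000 CPM, at 68.2 CPM (47.8–94.4) from 1000 to under 5000 CPM, at 188 CPM (159–221) from there to 20000 CPM and at 169 CPM (67.9–348) in the 12 nuclei above. Put another way, 19.3% of the 414 nuclei with an Oprk1 UMI belonged to the Oxt class. With 1 Oxt UMI as the minimum the ratio fell to 1.81, and with all barcodes that passed the filters to 6.18.

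The same 2 clusters with Oxt among their leading genes also differed in Oprk1. Cluster 8 (Oxt) stood at 201 CPM (169–237) and cluster 15 (Esr2, with Oxt among its 10 leading genes) at 47.3 CPM (37.3–59.1), a ratio of 4.25 (3.20–5.68). Cluster 15 thus held Penk, Pdyn and Oprk1 together at the level of the cluster, and cluster 8 held Oprk1 with some Pdyn and no Penk UMI.

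Oprm1 (ENSMUSG00000000766, chr10:6758506-7038198, plus strand), the mu receptor, had UMIs in 27.6% of neurons and was low in oxytocin and vasopressin neurons. It stood at 231 CPM (188–281) in the Ucn3 class, 2.54 times the other neurons (2.06–3.10), and above the next class, Sst (138 CPM, 119–158), by a ratio of 1.70 (1.32–2.18). The Sst, Trh (137 CPM), Crh (115 CPM) and GABA (99.9 CPM) classes followed without a step beyond counting error between neighbours. A step then led to the Oxt class at 24.2 CPM (15.9–35.2) and the Avp class at 15.4 CPM (9.39–23.7), which were 0.252 (0.165–0.367) and 0.158 (0.0966–0.245) times the other neurons. The glia stood at 23.6 CPM (12.9–39.5), close to the Oxt class and above the Avp value. With 1 UMI as the minimum the ratios were 0.937 for Oxt and 0.833 for Avp.

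At equal depth 38.1% of Ucn3 nuclei (25.2–52.3) held an Oprm1 UMI, against 16.4% of all neurons (15.3–17.5), 3.89% of the Oxt class, 2.93% of the Avp class and 3.95% of glia. By cluster it was highest in clusters 0 (Ucn3, 212 CPM), 5 (Megf10, 157 CPM) and 3 (Sst, 155 CPM), and it stood at 6.09 CPM in cluster 18 (Avp). Oprm1 spans 279693 bp and overlaps Ipcef1 (901 UMIs) and Gm10945 (6 UMIs) on the other strand. Whether the counting used strand is not given in the sources used here, so a part of these UMIs could belong to either gene. Penk likewise overlaps A830012C17Rik on the other strand, which has no row in the matrix.

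Oprd1 (ENSMUSG00000050511, chr4:132110726-132144486, minus strand), the delta receptor for enkephalins, had 162 UMIs in neurons. Cluster 7, led by Ebf2 and Bnc2, held 59 of them, 36.4%, at 31.8 CPM (24.2–41.0), 7.82 times the other neurons (5.58–10.9). The marker classes caught little of this: the Ucn3 class held 9 UMIs in 5 nuclei (20.6 CPM, 9.41–39.1, a ratio of 3.60, 1.61–7.01) and the GABA class 22 UMIs (9.52 CPM, 1.69 times, 1.03–2.66). Among the 11 Ucn3 nuclei of no other class the ratio was 9.78 (2.63–25.6), on 4 UMIs in 2 nuclei. Over the neurons without the 3 clusters of low Sim1, the ratio of the GABA class was 0.706 (0.144–2.11). The Avp class held 0 Oprd1 UMIs, which allows up to 2.31 CPM. The order of the classes below Ucn3 and GABA, which was Trh, Sst, Crh, Oxt and Avp, had no step beyond counting error.

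Oprl1 (ENSMUSG00000027584, chr2:181715016-181720985, plus strand), the nociceptin receptor, had few clusters that stood out. In 1 of 20 clusters it was more than 1.5-fold above the other neurons with an interval that left out 1, against 2 to 5 clusters for each other gene. That was cluster 10, led by AC121788.1 and Sema3d, at 38.7 CPM (29.4–50.05), and the median cluster stood at 23.4 CPM. Its departures in the classes were downward. The Crh class held 5 UMIs or 4.74 CPM (1.54–11.1), 0.212 times the other neurons (0.0685–0.497) and 0.260 times when set against the median gene of that class (0.0841–0.610). The Sst class stood at 9.73 CPM, 0.435 times (0.236–0.736), and the Oxt class at 11.6 CPM, 0.526 times (0.278–0.907). The Crh ratio was 0.718 when 1 Crh UMI was enough and 0.653 with all barcodes that passed the filters, and these changes took the Sst ratio to 1.03 and 0.829 and, with all barcodes, the Oxt ratio to 0.991. At equal depth the glia had a share of 3.88% (0.963–10.1), close to the 4.91% of neurons, so a low share of nuclei with an Oprl1 UMI is not read as expression.

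**Figure D3:**
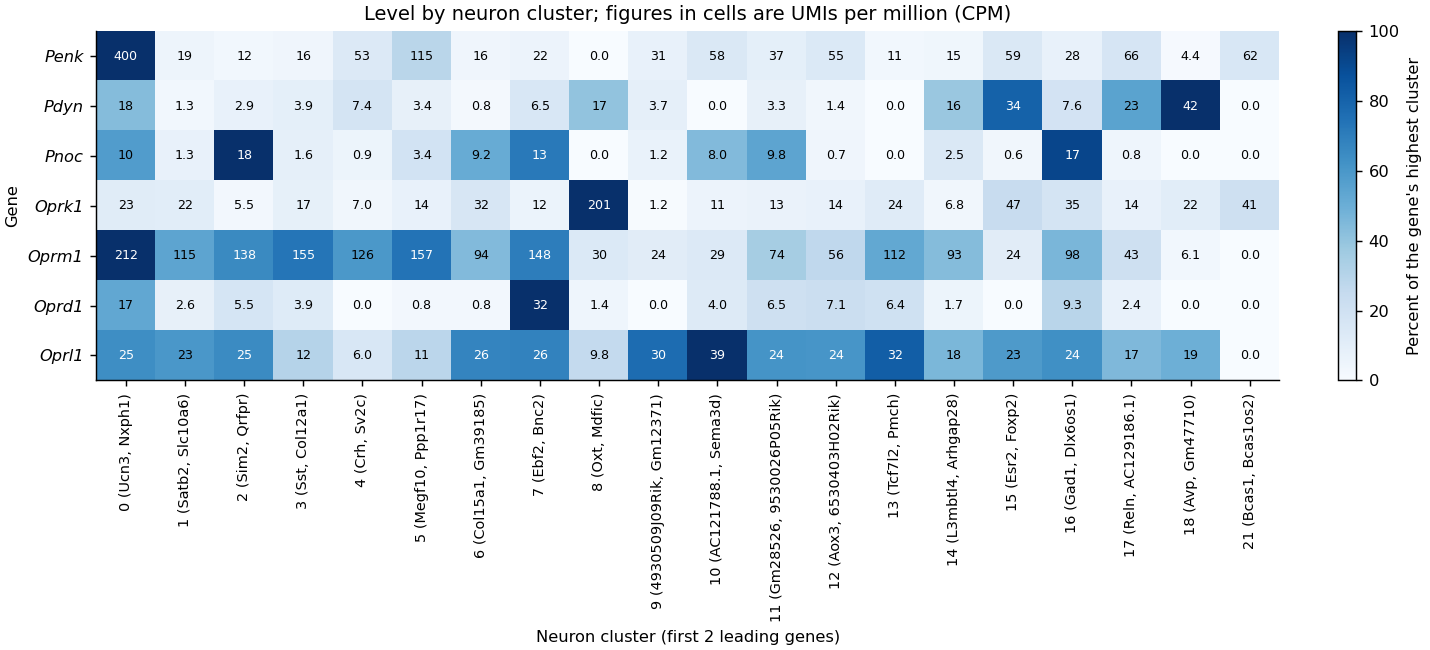
Level of the 7 genes (vertical axis) in the 20 neuron clusters (horizontal axis, with 2 leading genes each); shading gives the percent of the gene's own highest cluster and the figure in each cell the CPM. Penk and Oprm1 peak in cluster 0, Oprk1 in cluster 8, Pdyn in cluster 18, Pnoc in cluster 2, Oprd1 in cluster 7 and Oprl1 in cluster 10.

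Ligand and receptor transcripts were then looked for in the same nucleus. Penk and Oprm1 UMIs met in 137 of 4740 neurons and in 25 of the 58 Ucn3 nuclei, where 75.8% of nuclei with Penk (57.7–88.9) and 52.0% of those without (31.3–72.2) held Oprm1. Pdyn and Oprk1 met in 29 neurons, 12 of them in the Oxt class, where 54.5% of nuclei with Pdyn (32.2–75.6) and 53.1% of those without (44.1–62.0) held Oprk1. Over all neurons 13.9% of Pdyn nuclei and 8.50% of the others held Oprk1, an odds ratio of 1.74 (1.12–2.64) that takes no account of depth or class. Penk and Pdyn met in 10 Ucn3 nuclei, which were all 10 of the Ucn3 nuclei with a Pdyn UMI.

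With every nucleus thinned to 2338 UMIs, the number of nuclei expected to hold both genes was set against the product of their shares. For each of the 21 pairs the interval of that ratio took in 1. It was 1.45 (0.480–3.36) for Pdyn with Oprk1 and 1.09 (0.361–2.53) when the product was taken within clusters, 1.03 (0.765–1.36) for Penk with Oprm1, 1.19 (0.281–3.26) for Pnoc with Oprl1, 1.52 (0.778–2.68) for Oprm1 with Oprd1, and 0.578 (0.246–1.15) for Pdyn with Oprm1. The expected number of thinned nuclei with both was between 0.504 and 49.5, so departures of a few fold in the rarer pairs were not detectable at this depth.

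Other genes of the opioid pathway were taken from a list of 50, of which 48 had a row and 47 had enough UMIs by class. In the Ucn3 class 7 of 47 were at least 1.5-fold higher and 13 lower, with a median log2 ratio of -0.12 beside -0.02 for all genes (13.3% and 25.2% of all genes). Wls, which carries Wnt proteins and binds the mu receptor, stood at 2.50 times the other neurons (1.32–4.34), and Npffr1, a receptor of the anti-opioid neuropeptide FF system, at 0.106 times on 1 UMI (0.00268–0.593). In the Oxt class 3 were higher and 17 lower (13.5% and 18.5% of all genes), with a median of -0.16 (all genes 0.02). Kcnj3, a channel subunit that opioid receptors open through G proteins, stood there at 78.8 CPM against 533 CPM, 0.148 times (0.119–0.182). Kcnip3, which encodes a repressor that binds the Pdyn gene and is known as DREAM, stood at 2.69 CPM on 3 UMIs against 21.2 CPM, 0.127 times (0.0260–0.372).

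In the Avp class 4 of 47 were higher and 15 lower (11.3% and 21.9% of all genes), with a median of -0.03 (all genes -0.03), and Adcy8, an adenylyl cyclase, stood at 5.10 times the other neurons (4.72–5.52). In the Crh class 13 were higher and 10 lower (9.81% and 36.9% of all genes), with a median of 0.11 (all genes -0.30), among them the activity genes Fosb at 6.46 times (4.50–9.08) and Jun at 4.99 times (3.72–6.58), and Pcsk1, a convertase that cuts opioid precursors, at 3.65 times (3.32–4.01). In the Sst class 9 were higher and 9 lower (7.96% and 18.5% of all genes), with a median of 0.10 (all genes -0.04), and Rtp4, a chaperone of opioid receptors, stood at 16.5 times (10.9–25.0) with 47 of its 98 UMIs. The Trh class had 3 higher and 11 lower (6.35% and 9.59% of all genes), with a median of -0.00 (all genes 0.02), and Npffr1 stood at 1.91 times (1.49–2.41). The GABA class had 3 higher and 5 lower (4.61% and 10.7% of all genes), with a median of -0.01 (all genes -0.03), and Kcnip3 stood at 2.22 times (1.76–2.77). The list has no test of its own, and its shares are read only beside those of all genes.

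The levels of other genes over the 20 clusters were compared with those of each of the 7, by Pearson's r of log2(CPM + 10) among 10433 genes. The clusters share 1 library, and the values are descriptions. Nearest to Oprk1 was Oxt itself (r = 0.79), then 1810013L24Rik and Eif2a (both 0.76). Nearest to Penk were Pttg1ip (0.75), Nxph4 (0.70) and Upf1 (0.70), of which Pttg1ip and Upf1 were highest in the cluster of 13 nuclei; to Pdyn, Spata6 (0.82), Syne2 (0.80) and Dpyd (0.78); to Pnoc, 3110039M20Rik, Gm26848 and Gm45159 (0.76 to 0.74). Hmcn2 (0.80), Cd36 (0.74) and Cpne8 (0.72) were nearest to Oprd1, with Hmcn2 and Cd36 also highest in cluster 7. Nmnat2, Rock2 and Tcaf1 (all 0.87) were nearest to Oprm1, and Pfkl (0.93), Ttc21b (0.93) and Fbxo3 (0.92) to Oprl1. In the cluster of 13 nuclei Pdyn, Pnoc, Oprm1, Oprd1 and Oprl1 had 0 UMIs, which allows up to 75.7 CPM. Values of r without that cluster were not computed. Among the 7 genes the highest value was that of Pnoc with Oprd1 (0.62) and the lowest that of Oprk1 with Oprl1 (-0.30).

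The pools were compared to see how the Otp alleles go with opioid transcripts. Over neurons outside the GABA class, none of the 7 genes differed by 1.5-fold between any pools. Of all genes 1.61% were higher and 2.33% lower in KD than in Ctrl, 1.46% and 2.53% in Q153R than in Ctrl, and 2.16% and 2.15% in Q153R than in KD. Neurons of this group numbered 1695 in Ctrl, 1191 in KD and 1495 in Q153R, with medians of 5372, 5973 and 4698 UMIs. Nuclei of cluster 16, led by Gad1 and low in Sim1, stayed in this group where they lay outside the GABA class. Of the 537 nuclei of that cluster 231 were in the GABA class, and all 537 were 341 Ctrl, 128 KD and 68 Q153R nuclei. The summed pool ratios thus mix cluster make-up with level. The pools also differed in sex: neurons with 3 or more Xist UMIs and none from Y-linked genes, called Xist nuclei here, were 65.5% in Ctrl, 80.8% in KD and 47.3% in Q153R. The part of sex in the pool values was not tested beyond the values given for such nuclei.

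Among neurons outside the GABA class, Penk was the only one of the 7 with a ratio to Ctrl whose interval left out 1. Its level was 47.2 CPM (43.0–51.7) for Ctrl, 38.6 CPM (34.4–43.3) for KD and 53.7 CPM (48.6–59.2) for Q153R. KD over Ctrl was 0.819 (0.705–0.95), and 0.933 (0.792–1.099) without the Ucn3 class. Q153R over Ctrl was 1.14 (0.993–1.30), but 0.953 within clusters and 0.986 among Xist nuclei, and Q153R over KD was 1.39 (1.19–1.62), or 1.19 within clusters. At equal depth the shares of nuclei with a Penk UMI were 7.003% (5.77–8.40), 5.22% (3.98–6.70) and 7.64% (6.28–9.20), with overlapping intervals; unthinned they were 11.3%, 10.2% and 12.1%.

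Whether an interval left out 1 depended on the GABA class: with it, over all neurons, Q153R over Ctrl was 1.17 (1.03–1.33) for Penk and 0.890 (0.807–0.982) for Oprm1. Outside the GABA class no gene but Penk had a ratio to Ctrl whose interval left out 1. Pdyn stood at 9.57, 9.73 and 9.79 CPM in Ctrl, KD and Q153R, with ratios to Ctrl of 1.02 (0.739–1.40) and 1.02 (0.744–1.40). Pnoc stood at 5.86, 6.44 and 6.09 CPM, Oprk1 at 23.0, 23.4 and 21.4 CPM, and Oprl1 at 20.8, 20.2 and 24.7 CPM, and for each of them the intervals of all 3 ratios took in 1. Oprm1 stood at 93.4, 98.2 and 85.6 CPM, with a Q153R over KD ratio of 0.872 (0.784–0.970) and ratios to Ctrl of 1.052 (0.953–1.16) and 0.917 (0.828–1.02). Oprd1, on 46, 51 and 43 UMIs, stood at 4.73, 6.70 and 5.69 CPM, with a KD over Ctrl ratio of 1.42 (0.933–2.16) and a Q153R over Ctrl ratio of 1.20 (0.775–1.86).

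**Figure D4:**
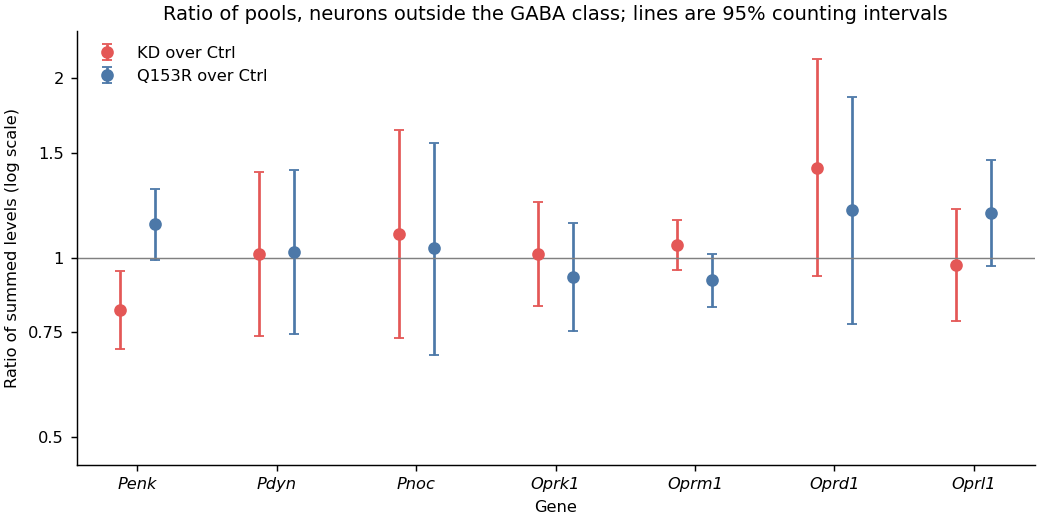
Ratio of summed levels (vertical axis, log scale) of nuclei labelled KD and Q153R to those labelled Ctrl for the 7 genes, over neurons outside the GABA class, with 95% counting intervals. The ratios lie between 0.819 and 1.42, and only the KD ratio of Penk has an interval that leaves out 1.

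In the Ucn3 class the summed level of Penk was lower in both altered pools. The 22 Ctrl nuclei gave 754 CPM (618–912), the 10 KD nuclei 459 CPM (335–614) and the 26 Q153R nuclei 526 CPM (430.2–638). The ratios to Ctrl were 0.608 (0.419–0.869) and 0.698 (0.528–0.923). Of the 7 genes 2, Penk and Oprm1, had 50 UMIs in these comparisons; Penk was at least 1.5-fold lower in KD and Oprm1 in Q153R, and 0 were higher. Of all genes with 50 UMIs, 12.9% were lower and 10.3% higher in KD (881 genes), and 8.71% and 8.25% in Q153R (1321 genes).

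Single nuclei gave a different picture of Penk than the sum. Of the Ctrl nuclei 11 held no Penk UMI and 9 held 5 or more, up to 14, with a median of 0.5 UMIs. Of the KD nuclei 4 held none and 3 held 5 or more, up to 16, with a median of 2. Of the Q153R nuclei 10 held none and 9 held 5 or more, up to 21, with a median of 2. So nuclei with a Penk UMI were 11 of the 22 in Ctrl, 6 of the 10 in KD and 16 of the 26 in Q153R, and the thinned shares were 48.9% (25.1–73.1), 40.0% (12.2–73.8) and 48.3% (28.4–68.6). The median nucleus was shallower in Ctrl (5558 UMIs) than in KD (9899.5) and Q153R (7358.5), and 1 Ctrl nucleus stood at 6555 CPM on 1678 UMIs. Without the nucleus of highest CPM in each pool, which in Ctrl is that nucleus, the ratios were 0.486 (0.309–0.742) and 0.635 (0.468–0.861), and without the nucleus with most Penk UMIs in each pool 0.481 and 0.6295; among Xist nuclei they were 0.598 and 0.889 (0.608–1.30); without likely doublets they were 0.290 and 0.612.

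Oprm1 in the Ucn3 class gave 317 CPM (231–425) for Ctrl, 224 CPM (141–339.6) for KD and 172 CPM (119–240.5) for Q153R. Its Q153R ratio was 0.542 (0.337–0.866), and 0.340 among Xist nuclei, and its KD ratio was 0.707 (0.404–1.20). It was found in 14 nuclei of the Ctrl pool, 9 of the KD pool and 15 of the Q153R pool. In cluster 0, which holds most Ucn3 nuclei, Penk gave ratios of 0.588 (0.424–0.809) and 0.715 (0.553–0.925), and Oprm1 gave 1.16 (0.778–1.73) and 0.711 (0.481–1.051). Cluster 5, the second in both genes, gave ratios of 0.578 (0.358–0.912) and 0.828 (0.549–1.24) for Penk and of 1.16 (0.829–1.62) and 0.578 (0.379–0.867) for Oprm1, in KD and Q153R.

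**Figure D5:**
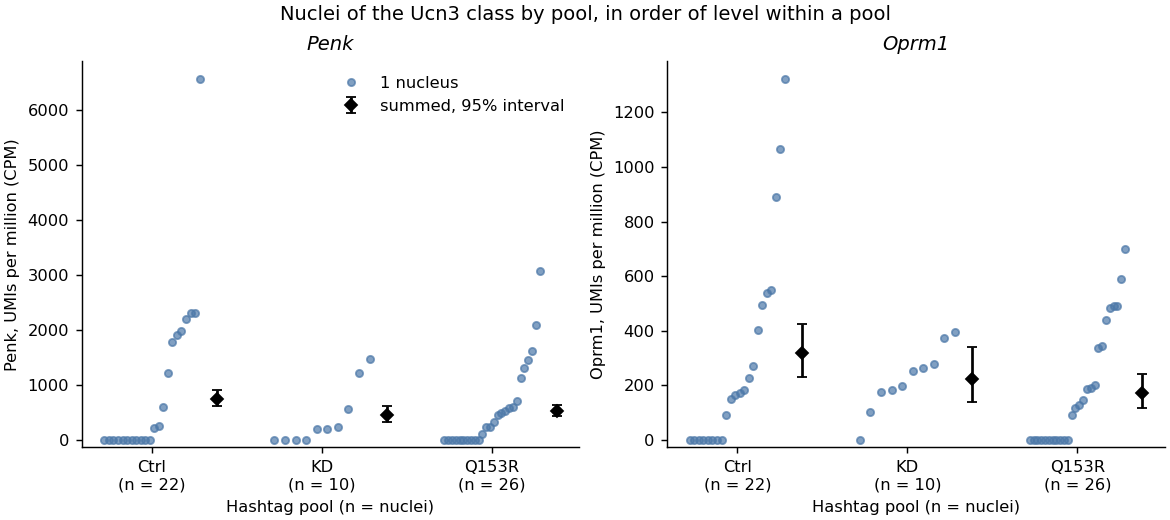
Penk and Oprm1 (CPM, vertical axes) in single nuclei of the Ucn3 class by hashtag pool (horizontal axis; points in order of level), beside the summed level with its Poisson 95% interval (diamond). The summed Penk levels of Ctrl, KD and Q153R are 754, 459 and 526 CPM, while 11 of 22, 4 of 10 and 10 of 26 nuclei stand at 0.

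The pools were also compared within the other classes, with no allowance for the number of ratios looked at. Oprk1 in the Oxt class gave 136 CPM for Ctrl, 199.9 CPM for KD and 164 CPM for Q153R, with ratios of 1.47 (1.02–2.11) and 1.21 (0.823–1.75). It was the only one of the 7 with 50 UMIs there and was not past 1.5-fold (4.95% of genes higher and 9.81% lower in KD, 5.17% and 7.33% in Q153R). The KD interval took in 1 without the nucleus with most UMIs in each pool (1.40), among Xist nuclei (1.42) and without likely doublets (1.30). In cluster 8, led by Oxt, the Oprk1 ratios were 1.54 (1.01–2.34) for KD and 1.29 (0.850–1.95) for Q153R. Pdyn in the Avp class gave 0.892 (0.429–1.83) and 0.827 (0.384–1.74). Oprm1 gave 0.566 (0.332–0.933) for KD in the Crh class, with an upper bound of 1.02 without the nucleus with most UMIs in each pool. Its interval left out 1 without the nucleus of highest CPM in each pool (0.581, 0.325–0.997). It also did among Xist nuclei (0.498, 0.289–0.831) and without likely doublets (0.404, 0.203–0.746). Oprm1 was the only one of the 7 with 50 UMIs there (7.85% of genes higher and 9.34% lower in KD, 7.75% and 11% in Q153R). It gave 1.46 (1.03–2.05) for Q153R in the Sst class, where it was again the only one with 50 UMIs and was not past 1.5-fold (5.47% of genes higher and 8.11% lower in KD, 5.33% and 6.84% in Q153R). There the interval among Xist nuclei took in 1 (0.922–2.57). The interval left out 1 without likely doublets (1.83, 1.23–2.71) and without the nucleus with most UMIs in each pool (1.47, 1.02–2.09). Oprm1 gave 0.589 (0.357–0.928) for Q153R in the GABA class, where the interval took in 1 among Xist nuclei (0.715) and without likely doublets (0.747). Without the nucleus with most UMIs in each pool it left out 1 (0.548, 0.319–0.891). In the GABA class Pnoc had 22 UMIs in 192 Ctrl nuclei, 3 in 97 KD nuclei and 9 in 70 Q153R nuclei, a KD ratio of 0.253 (0.0485–0.843), and Oprk1 stood at 33.6 and 14.5 CPM, a KD ratio of 0.432 (0.194–0.873). Of the 3 genes with 50 UMIs in the GABA comparisons, 0 were higher and 1, Oprk1, was lower in KD (4.38% and 7.07% of genes), and 1, Penk (1.59, 0.920–2.68), was higher and 1, Oprm1, lower in Q153R (7.31% and 11.7%). In the Oxt class Penk had 0 UMIs in Ctrl, 2 in KD and 6 in Q153R. The Q153R ratio to Ctrl had a lower bound of 2.15 and no upper bound, on 6 UMIs in 4 nuclei. In neurons of no class Oprm1 gave a KD ratio of 1.13 (1.01–1.27) and Oprl1 a Q153R ratio of 1.27 (1.01–1.605), and 0 of the 7 were past 1.5-fold (1.59% of genes higher and 2.78% lower in KD, 1.63% and 2.92% in Q153R). The GABA class was 10.2% of neurons in Ctrl, 7.53% in KD and 4.47% in Q153R.

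Q153R was also set against KD for the 7 genes in the 7 classes and in neurons of no class. Of these ratios, 6 had an interval that left out 1, with no allowance for the number looked at. Penk was higher in Q153R by a ratio of 1.55 (1.11–2.20) in the Trh class, where it alone of the 2 genes with 50 UMIs was past 1.5-fold (7.46% of genes higher, 4.68% lower). The Trh class takes in nuclei of the Ucn3 class, which had 26 nuclei in Q153R and 10 in KD. So this ratio does not describe Trh nuclei outside the Ucn3 class, for which the pools were not compared. In the Trh class 1 nucleus held 21 of the 112 Penk UMIs of Q153R, and 1 held 23 of the 53 of KD. Penk was also higher by 1.23 (1.02–1.48) in neurons of no class and by 2.08 (1.09–3.98) in the GABA class. The GABA value rests on 22 and 21 UMIs, of which 1 nucleus held 9 in each pool. In the Avp class Penk gave 10.6 (1.51–459.9), on 10 UMIs and 1 UMI. Pnoc gave 5.97 (1.49–34.3) in the GABA class, on 9 and 3 UMIs, and 1 Q153R nucleus held 6 of the 9. These GABA and Avp values fall short of 50 UMIs, so no share of all genes stands beside them. Oprm1 gave 0.804 (0.710–0.910) in neurons of no class, where 0 of the 7 genes were past 1.5-fold (2.5% of genes higher, 2.35% lower).

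Outside the GABA class 0 of 45 genes of the pathway list were past 1.5-fold in KD (1.61% of all genes higher and 2.33% lower). The median log2 ratio was 0.00 (all genes -0.05). Short of 1.5-fold, the KD interval left out 1 for Fos at 1.35 times (1.02–1.79) and Adcy1 at 1.24 times (1.04–1.49). It also left out 1 for Jun at 0.696 times (0.528–0.913). In Q153R 3 of 46 were higher and 0 lower (1.46% and 2.53% of all genes), with a median of 0.02 (all genes -0.02). The 3 were the activity genes Fos, at 22.0 against 10.5 CPM or 2.09 times (1.63–2.71), and Fosb, at 1.97 times (1.37–2.84), and the neuropeptide FF receptor gene Npffr2, at 1.90 times on 34 and 23 UMIs (1.09–3.38). Pcsk1n, which encodes an inhibitor of Pcsk1, stood at 333 CPM in KD against 417 CPM in Ctrl (0.798, 0.759–0.839). In the Ucn3 class, where Penk is highest, 1 of 11 genes of the list with enough UMIs was higher and 3 were lower in KD (10.3% and 12.9% of all genes), and 0 were higher and 2 lower in Q153R (8.25% and 8.71%). Pcsk1n gave 0.443 (0.292–0.656) in KD and 0.608 (0.457–0.808) in Q153R, Rgs7, a regulator of G protein signalling, gave 0.412 (0.281–0.591) and 0.545 (0.418–0.708), and Pcsk1 gave 2.47 (1.56–3.98) in KD. In the Oxt class 0 of 16 were past 1.5-fold in KD (4.95% of all genes higher and 9.81% lower). There 2 of 16 were higher and 0 lower in Q153R (5.17% and 7.33% of all genes): Pcsk1 at 1.77 (1.34–2.34) and Adcy8 at 1.59 (1.17–2.16). In the Avp class 1 of 17 was higher and 0 lower in KD (5.96% and 6.99% of all genes), and 3 of 18 were higher and 0 lower in Q153R (5.80% and 7.22%), among them Pcsk1n at 1.52 (1.20–1.94).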

How the data were processed

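Nuclei of 1 pooled library were analysed; the hashtag library was read through 3 antibody rows of the same matrix. The authors deposited unnormalized UMI counts for each feature in each barcode, made with Cell Ranger 6.0.0 on the mm10 build per the submitters' processing notes, whereas 7.0.0 is written in the header of the matrix. For the annotation, intron and strand settings and cell calling, nothing is stated in the sources read. Feature identifiers and barcodes are the other deposited columns, per the file headers, and hold no measurement. Gene positions and coding sequences came from GENCODE vM21 on GRCm38.

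Barcodes with at least 500 genes, under 5% mitochondrial UMIs (the highest had 3.30%) and exactly 1 hashtag at its minimum (Ctrl 105, KD 61, Q153R 37) were kept; 1124 with several tags and 129 with none were left out. Within-pool doublets, 583 by the number of multiple-tag barcodes, were kept, and leaving out the nuclei nearest to multiple-tag barcodes was an alternative. Counts were scaled, and 2000 variable genes without the 7 genes and the pathway list gave 30 principal components, 15 neighbours and 23 Leiden clusters at resolution 1 (scanpy 1.11.5, leidenalg 0.10.2). A cluster took a glial name where at least 2 markers of that type were among its 10 leading genes by fold. CPM have exact Poisson intervals, ratios of levels exact conditional binomial intervals (Mantel-Haenszel for pools within clusters) and shares Clopper-Pearson intervals (scipy 1.17.1). Ratios of co-detection to the product of shares have Poisson intervals on the expected number of nuclei with both. The product was taken as fixed. A count of 0 allows 3 counts, for class levels, or the upper Poisson bound, for a cluster. Thinned shares are expectations over all draws of 2338 UMIs, the 10th percentile of nuclei with 1 tag, with 419 neurons and 72 glia left out as shallower. Ratios were computed for all genes with at least 50 UMIs and read at 1.5-fold. The ratio and thinning code was tested on simulated counts.

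The genes, lists and classes were chosen with earlier results of these data known. Named are the 7 genes, at most 4 pathway genes per comparison with the largest ratio among those whose interval leaves out 1, and, for each of the 7, the 3 genes of highest r among those with at least 200 UMIs. With 1 library and 1 pool per tag there is no test.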

Additional observations from a re-analysis of the deposited data

How the results depend on the processing

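Each recomputed value was set against the counting interval of the reported value. The medians of the pathway list, which have no interval, were judged by a fixed log2 distance. Of the recomputed values that answer a comparison, 183 stayed within and 17 moved out. Of the other recomputed values 181 stayed within, 21 moved out and 5 turned direction. With 1 UMI of the marker as the minimum, the class ratios became 10.2 for Penk in Ucn3, 1.57 for Pdyn in Avp, 1.81 for Oprk1 in Oxt, 2.01 for Oprm1 in Ucn3 and 0.718 for Oprl1 in Crh; at that minimum Penk turned to 1.03 in Oxt and 1.01 in Avp, and Oprl1 to 1.03 in Sst. At 2 times the minimum Pnoc in GABA was 5.96 and Oprm1 in Ucn3 3.14. With nuclei of exactly 1 class, Penk in Ucn3 was 13.3, Oprd1 in Ucn3 9.78 and Pdyn in Ucn3 0. With all 6157 barcodes, of which those never clustered counted as neurons, the ratios were 9.86 for Penk in Ucn3, 2.97 for Pdyn in Avp, 6.18 for Oprk1 in Oxt, 1.99 for Oprm1 in Ucn3 and 0.653 for Oprl1 in Crh. Without likely doublets Penk in Ucn3 was 19.9. Penk in Q153R over Ctrl was 0.953 within clusters and 0.986 among Xist nuclei. Without the 3 neuron clusters with less Sim1 than the glia, Oprd1 in GABA turned to 0.706 (0.144–2.11), and the interval of Pnoc in GABA took in 1 (1.87, 0.789–3.79). The causes were not tested. The alternatives without those 3 clusters, without the cluster of 13 nuclei with oligodendrocyte-lineage genes alone, without the nucleus of highest CPM in each pool and, for the pools, without the Ucn3 class were chosen after seeing the data. No paired analysis was possible because there is 1 library and no replicate number links nuclei. Depth limits the scarce genes: Pdyn, Pnoc and Oprd1 had 258, 186 and 162 UMIs in neurons, and class values resting on under 10 UMIs have intervals several fold wide.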
